A study of Caenorhabditis elegans with 12 samples.

Results

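The exposure examined here was cadmium (Cd) given to *C. elegans* from the L1 stage for 47 h, to the L4 stage. The 6 libraries titled L4 of the 12 in the study were used: 3 of unexposed worms and 3 of worms exposed to 20 µM CdCl2. The wild-type strain N2 was used throughout, as staged hermaphrodites kept at 20 °C on NGM plates. Cd was mixed into the *E. coli* OP50 food, which the unexposed worms received without Cd. Poly-A RNA of whole worms was sequenced, and the other 6 libraries repeat the design at L3 after 27 h. Stage and length of exposure change together between these sets. A difference between L3 and L4 can thus not be told apart from one between 27 h and 47 h. A whole-worm library mixes all tissues, and in such bulk samples fewer cells of a type and less RNA per cell cannot be told apart. The labels number 3 replicates per group without saying whether they came from separate cultures, so p-values measure only the spread between these samples, which may be technical.

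Cd is a metal without a known role in nematodes that binds thiol groups. Metallothioneins, small cysteine-rich proteins, bind it, and Cd that reaches other proteins can disturb their folding, which chaperones counter. From L4 to adulthood the worm makes its last cuticle and the hermaphrodite gonad switches from sperm to oocytes, so that gene families of the cuticle, of sperm, of oocytes and of yolk change within hours in unexposed worms.

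The deposited values are raw counts per gene, with totals from 32160427 to 44766672 counts per L4 library. Of 46546 named genes 25350 had a count in at least 1 L4 library, and 16201 were abundant enough to be tested. The groups are given by titles and treatment labels, and the source name of the exposed libraries alone reads Cd 0. *mtl-1* was checked for this reason and was higher in each exposed library than in each unexposed one. The stage was checked with marker lists, none of whose genes was at 0. The summed level of the 35 major sperm protein genes was 3714 to 4092 CPM (counts scaled to the library total) in unexposed and 3796 to 4554 CPM in exposed L4 libraries, and at most 3.15 CPM at L3. The 6 vitellogenin genes, yolk genes expressed in the intestine of adult hermaphrodites, summed to 25214, 47624 and 34101 CPM in the unexposed libraries 1 to 3 and to 18794, 30622 and 28693 CPM in the exposed ones. At L3 they summed to at most 14.9 CPM. Yolk transcripts, a mark of adults, were thus abundant in all 6 libraries labelled L4. *vit-6* had more counts than any other gene in 5 of them and ranked second in exposed replicate 1.

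The L4 libraries of a group were not alike. The first principal component over 12495 genes held 71.7% of the variance, with positions of -3.18, -42.8 and -10.99 for the unexposed and 39.9, 6.94 and 10.1 for the exposed libraries. Unexposed replicate 2 and exposed replicate 1 were the ends of this axis. They also had the highest and the lowest vitellogenin sum. Values are therefore also given for 2 against 2 libraries, without these 2, a comparison added after the data were seen. In both groups replicate 1 was highest and replicate 2 lowest on this axis. Same-numbered libraries correlated at 0.63, 0.60 and -0.18 in their deviations from the group means, and whether the numbers pair them cannot be told. If they do, this comparison splits the pairs numbered 1 and 2, setting unexposed replicate 1 against exposed replicate 2. Leaving out the ends of this axis makes the medians of families that follow it smaller in size. Such a drop is set by the choice of libraries and is no separate result. Exposed replicates 2 and 3 were nearest to each other, with a chi-square per degree of freedom of 3.33 against 31.9 to 84.9 for the other pairs of a group. They were kept as separate libraries, and whether they came from separate cultures is not stated. The p-values and the counts of non-overlapping groups from all 6 libraries thus also rest on this pair.

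Cd altered few single genes past the threshold at L4. A call needed an adjusted p (Benjamini-Hochberg) no larger than 0.05 in edgeR's quasi-likelihood test with a log2 fold change of at least 1 in size, and 7 of 16201 genes (0.0432%) passed, 6 up-regulated and 1 down-regulated. All 7 had exposed libraries that did not overlap the unexposed ones, as had 19.3% of all tested genes with higher and 17.4% with lower exposed values. The up-regulated genes were *T08G5.1*, *mtl-1*, *K04A8.20*, *Y53F4B.8*, *C06B3.7* and *F56C3.9*, and the down-regulated gene was *nhr-114*. A further 33 genes shared the next adjusted p of 0.0524, and 823 genes, 486 of them higher with Cd, had an adjusted p of at most 0.1. At an unadjusted p of at most 0.05 the exposed libraries were higher for 2358 genes (14.6%) and lower for 1984 genes (12.2%). The median log2 fold change of all tested genes was 0.03, and 440 genes were at least 2-fold higher while 100 were at least 2-fold lower. DESeq2's Wald test called 134 genes higher (0.989% of the 13554 with an adjusted p) and 36 lower (0.266%). The 170 genes included 6 of the 7, and *K04A8.20* received no adjusted p there.

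The number of calls depended on single libraries. It was 3 without unexposed replicate 1, 12 without unexposed replicate 2 and 6 without exposed replicate 1. It was 0 in edgeR when unexposed replicate 3 was left out, with 3342 genes at an unadjusted p of at most 0.05. It was also 0 in edgeR after leaving out exposed replicate 2 (3717 genes at that p) or exposed replicate 3 (3245 genes). DESeq2 was not run without a library. With 2 against 2 libraries 60 genes were called, and 2772 of the 4342 genes at the unadjusted p were again at that p in the same direction. The exposed libraries of that fit are replicates 2 and 3, the pair nearest to each other, so its spread within the exposed group is small. It uses a part of the same libraries and is not an independent repeat. Gene families are therefore described by counts at the unadjusted p and by medians. Single members of a family were named from those with the smallest p and without overlap of the groups. Separate groups in named members thus follow from that choice. These are to be read against 14.6% of all genes higher, 12.2% lower and a median of 0.03, or 11.2% higher, 11.2% lower and a median of 0.003 in the comparison of 2 against 2 libraries.

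The called genes included a metallothionein gene and the neighbour of another. *mtl-1*, one of the metallothionein genes, had 2.27, 3.30 and 1.32 CPM in the unexposed libraries and 14.8, 17.8 and 22.2 CPM in the exposed ones. *T08G5.1*, a gene next to *mtl-2* on chromosome V, had 0.220, 0.337 and 0.201 CPM without Cd and 2.57, 4.02 and 4.63 CPM with it. In both genes exposed replicate 1 was the lowest of the exposed libraries and still far above the unexposed ones. The log2 fold change was 2.99 (standard error 0.303) for *mtl-1* and 3.88 (standard error 0.327) for *T08G5.1*, with adjusted p-values of 0.0230 and 0.0138 from edgeR's quasi-likelihood test. Over the other settings tried, single libraries left out included, the log2 fold change lay between 2.71 and 3.45 for *mtl-1* and between 3.68 and 4.33 for *T08G5.1*, with adjusted p-values of up to 0.116 and 0.111.

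The other up-regulated genes have no role given here. *Y53F4B.8* (chromosome II) had 1.48, 1.17 and 1.06 CPM in unexposed and 5.82, 5.28 and 5.74 CPM in exposed worms. *C06B3.7* (chromosome V) had 4.74, 3.43 and 3.55 CPM in unexposed and 11.9, 14.7 and 17.3 CPM in exposed worms. *F56C3.9* (chromosome X) had 3.02, 1.82 and 2.55 CPM in unexposed and 7.48, 7.92 and 8.79 CPM in exposed worms. The exposed libraries of *Y53F4B.8* and *F56C3.9* were close together, whereas those of *C06B3.7* were spread. *K04A8.20* (chromosome V) stayed at or below 0.143 CPM in unexposed worms and reached 0.769, 1.38 and 1.47 CPM with Cd, so that its change rests on few counts.

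*nhr-114*, a nuclear hormone receptor gene (chromosome V), fell from 38.4, 32.4 and 29.9 CPM to 16.1, 16.9 and 17.1 CPM. The exposed libraries were nearly equal and each lay below every unexposed one. The log2 fold change was between -1.09 and -0.93 in every setting tried, and its adjusted p lay between 1.48e-09 (DESeq2) and 0.224. *ttr-6*, a transthyretin-related gene, and *tep-1*, a gene of the thioester-containing protein family, passed the adjusted p but not the fold minimum, and are named for that after their values were seen. *ttr-6* had 41.5, 42.5 and 41.8 CPM without and 76.3, 71.2 and 73.9 CPM with Cd, a log2 fold change of 0.81 (adjusted p = 0.0155 from edgeR). *tep-1* had 73.8, 80.2 and 86.1 CPM without and 139, 129 and 130 CPM with Cd, a log2 fold change of 0.73 (adjusted p = 0.0438 from edgeR). The reference gene *rla-1*, a ribosomal stalk protein gene, had a log2 fold change of -0.01.

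**Figure D1:**
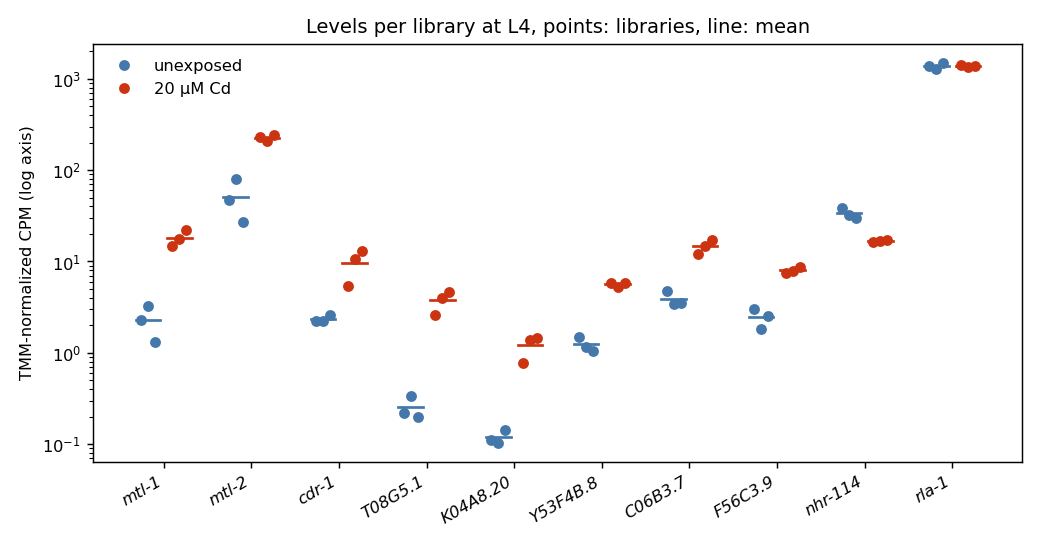
TMM-normalized CPM (log axis) of the 7 called genes, *mtl-2*, *cdr-1* and *rla-1* in each L4 library, with points for libraries (3 unexposed in blue, 3 exposed to 20 µM Cd in red) and a line at the group mean. The groups do not overlap for the first 9 genes, with *mtl-1* at 1.32 to 3.30 CPM unexposed and 14.8 to 22.2 CPM exposed, and overlap for *rla-1*.

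Among metal-handling families the metallothionein and *cdr* genes stood highest. All 7 tested members of 8 had a positive log2 fold change, with a median of 0.62 and a median rank at the 90.4th percentile of all tested genes, and 4 were higher at the unadjusted p. *mtl-2* had 46.6, 80.6 and 26.8 CPM in unexposed and 232, 209 and 241 CPM in exposed libraries. *cdr-1*, the Cd-responsive glutathione S-transferase-like gene, had 2.205, 2.23 and 2.61 CPM in unexposed and 5.41, 10.6 and 12.9 CPM in exposed libraries. Exposed replicate 1 had the lowest *cdr-1* and *mtl-1* of the exposed worms but not the lowest *mtl-2*. Both missed the threshold in edgeR, with log2 fold changes of 2.15 (adjusted p = 0.0547) for *mtl-2* and 2.04 (adjusted p = 0.0524) for *cdr-1*, and passed it in DESeq2. The family median was 0.77 with 2 against 2 libraries.

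Medians of the other metal families were small. Of the 5 genes that make, move and recycle thiol peptides, 4 had negative log2 fold changes, with a median of -0.13. *hmt-1*, the transporter known for Cd tolerance in this species, had 68.3, 67.9 and 72.6 CPM without and 54.2, 64.0 and 58.9 CPM with Cd (log2 fold change -0.24, unadjusted p = 0.0246 and adjusted p = 0.144 in edgeR). Zinc transporters and sensors went both ways, with 4 of 19 higher and 5 lower at the unadjusted p and a median of 0.13. Over all genes 14.6% were higher and 12.2% lower at this p. *cdf-2*, which stores zinc in gut granules, had 9.59, 7.66 and 8.71 CPM without and 14.9, 13.5 and 11.95 CPM with Cd. The importer-family gene *zipt-11* had 71.7, 81.5 and 74.2 CPM without and 55.8, 63.6 and 59.6 CPM with Cd. The log2 fold changes were 0.64 for *cdf-2* and -0.34 for *zipt-11*, and neither passed the threshold. Iron and heme genes had a median of -0.17, with 1 of 15 higher and 3 lower at the unadjusted p. DESeq2 called 1 of them lower. *fpn-1.2*, a ferroportin homologue, had 9.19, 14.3 and 6.99 CPM without and 5.65, 5.03 and 4.56 CPM with Cd. The ferritin gene *ftn-2* had a log2 fold change of -0.24, and the 7 copper genes had 0 at the unadjusted p in edgeR and 0 called by DESeq2.

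Body wall muscle markers and a list of sarcomere genes were higher with Cd. For all 7 body wall muscle markers the lowest exposed library lay above the highest unexposed one, at a median log2 fold change of 0.52, and each of them met the unadjusted p. Leaving out unexposed replicate 1 gave a median of 0.34. A wider list of 43 sarcomere and muscle attachment genes was written after the markers had been seen, and holds them. All 43 had log2 fold changes above 0, 39 had groups that did not overlap, 35 (81.4%) were higher at the unadjusted p and 0 lower, and the median was 0.37. Of all tested genes 19.3% had higher exposed libraries without overlap and 14.6% were higher at that p. None of the 43 passed the threshold in edgeR or DESeq2. The median over the list of log2 CPM minus the unexposed mean was -0.12, 0.00 and 0.07 in the unexposed libraries and 0.39, 0.37 and 0.36 in the exposed ones. The exposed libraries were thus nearly equal, including replicate 1. In the comparison of 2 against 2 libraries the median was 0.35 and 33 of the 43 genes were higher at the unadjusted p, against 11.2% of all genes higher and 11.2% lower. The markers together made up 7075, 8434 and 9100 CPM in unexposed and 12034, 11953 and 11554 CPM in exposed worms.

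The muscle genes with the smallest p came from thick filaments, the M-line and the attachment to the membrane. *ttn-1*, the titin-like gene, had 134, 169 and 142 CPM in unexposed and 247, 255 and 240 CPM in exposed libraries, a log2 fold change of 0.74 (adjusted p = 0.0524 in edgeR). *myo-3*, a myosin heavy chain gene, had 236, 277 and 317 CPM without and 413, 474 and 452 CPM with Cd, a log2 fold change of 0.69. *unc-89*, the obscurin-like M-line gene, had 253, 306 and 298 CPM without and 421, 450 and 429 CPM with Cd, a log2 fold change of 0.60. In these 3 genes the lowest exposed library lay well above the highest unexposed one, but genes were named from those without overlap. *pat-2*, an alpha integrin gene, had 86.0, 86.5 and 91.7 CPM without and 126, 137 and 129 CPM with Cd. *cpna-2*, a copine gene of the attachment sites, had 195, 219.1 and 217 CPM without and 320, 347 and 327 CPM with Cd. The paramyosin gene *unc-15* had a log2 fold change of 0.52. None of the 6 passed the fold minimum.

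At L3 the same 43 genes had a median log2 fold change of -0.02. The difference between the Cd effects at L4 and L3, tested over all 12 libraries in edgeR, was past an adjusted p of 0.05 at any fold for 14 of the 43 genes, each with the larger effect at L4, against 8.09% of all genes in that direction and 3.53% in the other. It was 0.92 for *pat-2* (adjusted p = 0.00543 in edgeR), 0.89 for *cpna-2* (adjusted p = 0.00679), 0.90 for *unc-89* (adjusted p = 0.00954) and 0.73 for *myo-3* (adjusted p = 0.0225). None of these 4 reached the fold minimum of the call. For *unc-15* the difference was 0.41 (adjusted p = 0.169).

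Markers of other tissues were smaller or mixed. Of 9 neuron markers 5 were higher at the unadjusted p, with a median of 0.33 and library medians of -0.02, 0.00 and 0.03 without and 0.42, 0.30 and 0.26 with Cd. *unc-13*, a synaptic vesicle priming gene, had 26.4, 27.0 and 26.6 CPM without and 37.5, 34.5 and 33.8 CPM with Cd. Hypodermis markers had a median of 0.38, with 3 of 7 higher at the unadjusted p. The 6 pharynx markers had a median of 0.16 and the 5 intestine markers of 0.12, with 1 higher in each list and overlapping library medians. The summed level of the intestine list was 1539.9 to 1953 CPM in unexposed and 2001 to 2072 CPM in exposed libraries. The library medians of muscle, neuron and hypodermis markers thus did not overlap between the groups, and those of pharynx and intestine markers did.

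**Figure D2:**
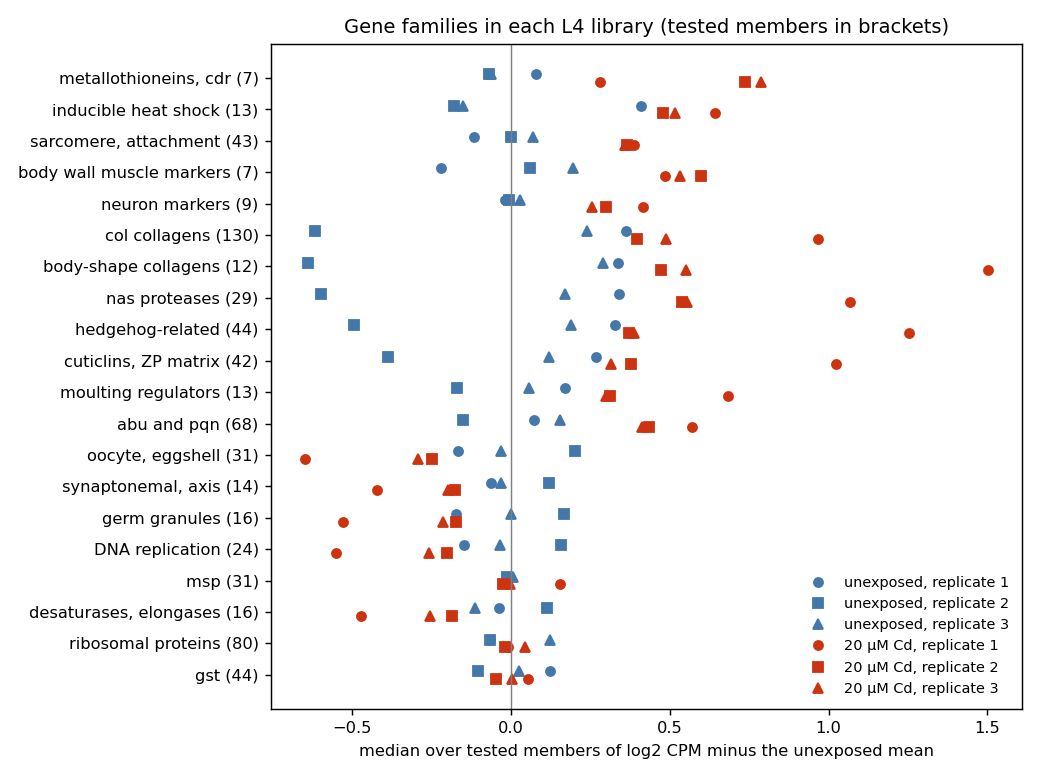
Median over the tested members of each family of log2 CPM minus the mean of the unexposed libraries, for every L4 library (unexposed in blue, 20 µM Cd in red, replicates 1 to 3 as circle, square and triangle). The 3 exposed libraries of the sarcomere list lie together at 0.36 to 0.39, whereas exposed replicate 1 lies apart at 1.503 for body-shape collagens and unexposed replicate 2 at -0.64.

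Cuticle and moulting families had medians well above that of all genes, with a wide spread between replicates. The 130 tested of 159 *col* collagen genes had a median log2 fold change of 0.59, with 53 higher and 15 lower at the unadjusted p. The 12 tested body-shape and strut collagens had a median of 0.85, 10 of them higher at the unadjusted p. Astacin proteases (*nas*, secreted metalloproteases) had a median of 0.74 with 18 of 29 higher, and hedgehog-related genes (*wrt*, *grd*, *grl*, *qua* and *hog*) a median of 0.67 with 19 of 44 higher and 3 lower. Cuticlins and matrix proteins had 17 of 42 higher, patched-related genes 12 of 24, and moulting regulators 8 of 13, with medians of 0.57, 0.46 and 0.47 and 0 lower in each. Of the *abu* and *pqn* genes, many of which encode proteins of the pharyngeal cuticle, 36 of 68 were higher and 4 lower. Over all genes 14.6% were higher and 12.2% lower at this p. None of the members of these families was called in edgeR, and DESeq2 called 13 higher in all: 5 *abu* or *pqn* genes, 3 *col*, 2 *nas* and 1 each of the patched-related, hedgehog-related and cuticlin genes.

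The libraries of a group differed in these families. For the *col* genes the library medians were 0.36, -0.61 and 0.24 without and 0.97, 0.40 and 0.49 with Cd, and for the body-shape collagens 0.34, -0.64 and 0.29 without and 1.503, 0.47 and 0.55 with Cd. The exposed medians stayed above the unexposed ones in both families, but the nearest libraries of the groups were close. With 2 against 2 libraries the medians were 0.14 for *col*, 0.17 for body-shape collagens, 0.27 for *nas*, 0.14 for hedgehog-related genes and 0.15 for cuticlins and matrix proteins. The *abu* and *pqn* genes were at 0.29 against 0.46, patched-related genes at 0.21 against 0.46 and moulting regulators at 0.22 against 0.47. The counts of higher genes at the unadjusted p dropped to 34 for *col* (11 lower), 5 for body-shape collagens, 9 for *nas* (1 lower), 10 for hedgehog-related genes (3 lower) and 7 of 42 for cuticlins (1 lower), beside 11.2% of all genes in each direction. They were 33 for *abu* and *pqn* genes (3 lower), 9 for patched-related genes and 8 for moulting regulators, the same number as with all 6 libraries for the latter. Leaving out exposed replicate 1 alone gave 0.38 for *col*, 0.45 for body-shape collagens, 0.35 for hedgehog-related genes, 0.37 for cuticlins and 0.31 for moulting regulators, and leaving out unexposed replicate 2 gave 0.48 for *nas*. The 6 furrow collagens had a median of 0.49 and -0.14 with 2 against 2 (-0.01 without exposed replicate 1), with 0 at the unadjusted p in edgeR and 0 called by DESeq2. The libraries apart in the cuticle families were the same 2 that were apart in their vitellogenin sums, in the opposite direction, and the part of the difference between these libraries in the cuticle medians was not tested.

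Single cuticle genes repeated this order of libraries. *dpy-13*, a body-shape collagen gene, had 460, 223 and 488 CPM in unexposed and 1199, 536 and 570 CPM in exposed libraries. *nas-38* had 18.0, 6.83 and 17.2 CPM without and 39.8, 25.9 and 27.7 CPM with Cd. *qua-1*, a hedgehog-related gene needed for moulting, had 43.4, 23.8 and 39.2 CPM without and 104, 57.2 and 56.2 CPM with Cd. In each of the 3 genes exposed replicate 1 was highest and unexposed replicate 2 lowest. Genes picked for the smallest p, a choice that favours a small spread, were less spread. *col-155* had 154.2, 105.7 and 170 CPM without and 264, 224 and 225 CPM with Cd. *grl-4* had 95.3, 55.2 and 90.6 CPM without and 170, 133 and 143 CPM with Cd, and *pqn-44* 115, 99.5 and 112.1 CPM without and 161, 148 and 151 CPM with Cd. Their log2 fold changes were 0.73, 0.88 and 0.50, and none passed the threshold.

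Some collagens went the other way. *col-140* had 2845, 3527 and 3079.8 CPM without and 2060.3, 2424 and 2415 CPM with Cd, a log2 fold change of -0.45. *col-98* had 365, 661 and 536 CPM without and 200, 329 and 307 CPM with Cd, a log2 fold change of -0.90. In *col-98* the library order was the reverse of that in *dpy-13*, with unexposed replicate 2 highest and exposed replicate 1 lowest. *col-106* had a log2 fold change of -0.35, and the hedgehog-related *grd-3* one of -0.83, with 47.7, 75.6 and 59.8 CPM without and 22.7, 40.96 and 39.1 CPM with Cd. How reads shared by near-identical *col*, *abu*, *msp*, F-box and histone genes were counted is not stated, so values of single members of these families are uncertain.

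The Cd effect on many cuticle genes differed from that at L3. Medians at L3 were -0.59 for *col*, -1.15 for body-shape collagens, -0.77 for *nas*, -0.97 for hedgehog-related and -0.43 for patched-related genes. They were near 0 at L3 for cuticlins (-0.07), *abu* and *pqn* genes (-0.14) and moulting regulators (-0.01), and the furrow collagens had 0.70 at L3, above their 0.49 at L4. The edgeR test of the difference over all 12 libraries called 963 genes with a higher effect at L4 (5.6%) and 109 with a lower one (0.634%). Among them were 55 *col* genes higher and 5 lower of 133, 9 body-shape collagens of 13, 13 *nas* genes of 31 and 24 hedgehog-related genes of 49, the latter 3 with 0 lower. Also higher were 21 *abu* or *pqn* genes of 69, 12 patched-related genes of 25, 12 cuticlins of 43 and 3 moulting regulators of 13, and the 6 furrow collagens had a median difference of -0.20. *dpy-13* had a difference of 3.26 (adjusted p = 0.00468 in edgeR), *nas-23* of 3.60 (adjusted p = 0.00369), *cut-4* of 2.77 (adjusted p = 0.00426), *mlt-10* of 2.46 (adjusted p = 0.00369) and *bed-3*, a transcription factor of the moult, of 2.36 (adjusted p = 0.00369). Without exposed L4 replicate 1 the whole count of called differences was 702, and without unexposed L4 replicate 2 it was 792, against 1072 in all.

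**Figure D3:**
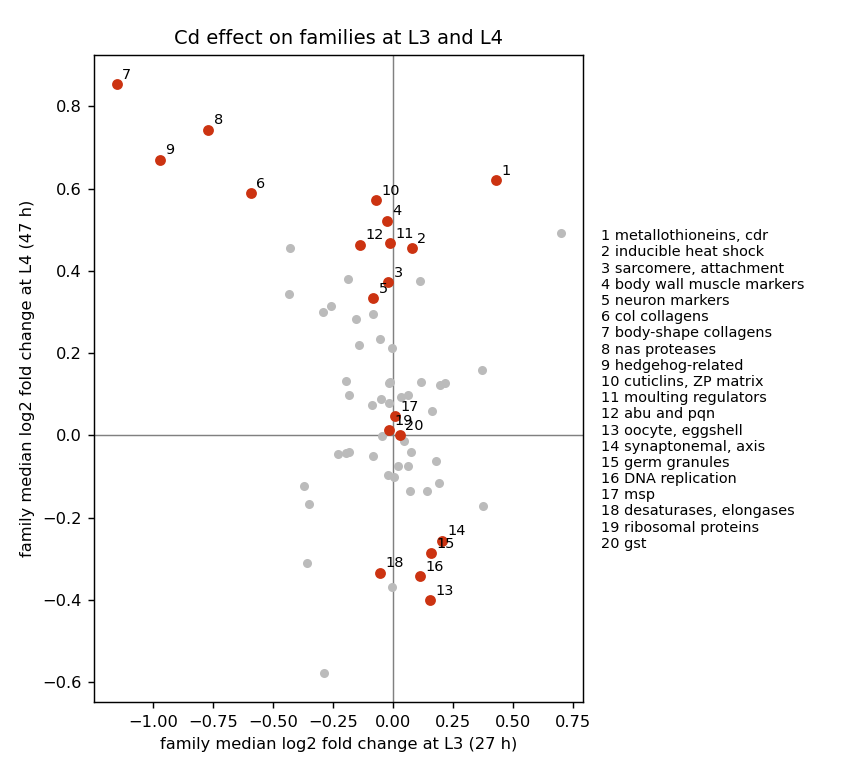
Family medians of the log2 fold change of Cd at L4 (vertical) against those at L3 (horizontal), for families with at least 5 tested genes (grey) and the 20 numbered in the key (red). Body-shape collagens lie at -1.15 and 0.85, metallothioneins and *cdr* genes at 0.43 and 0.62, and the sarcomere list at -0.02 and 0.37. No relation across families was tested.

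Inducible heat shock genes were higher with Cd, and chaperones of unstressed cells were not. Of 17 small and inducible heat shock genes 13 were tested, and 7 of these (53.8%) were higher at the unadjusted p and 0 lower. Over all genes 14.6% were higher and 12.2% lower, and the family median was 0.45. *hsp-16.1*, *hsp-16.11*, *hsp-16.48* and *hsp-16.49* were below the count filter and were not tested. *hsp-70* had 89.1, 60.02 and 56.5 CPM in unexposed and 141, 154.9 and 160 CPM in exposed libraries. *hsp-16.2* had 39.9, 22.7 and 22.2 CPM without and 62.3, 60.9 and 64.0 CPM with Cd. *aip-1*, an arsenite-inducible gene linked to the proteasome, had 81.4, 62.5 and 69.7 CPM without and 110, 117 and 121 CPM with Cd. Unexposed replicate 1 was the highest unexposed library in all 3 genes, and each exposed library lay above it. The log2 fold changes were 1.15, 1.14 and 0.71, with adjusted p-values of 0.0524, 0.0799 and 0.0524 in edgeR, and DESeq2 called *hsp-70* and *hsp-16.2*. With 2 against 2 libraries the family median was 0.36. At L3 the log2 fold changes were 0.08, 0.01 and -0.52, and the difference between stages was past the threshold for all 3, with adjusted p-values of 0.0168, 0.0330 and 0.00369 from edgeR.

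The 13 cytosolic chaperones of unstressed cells had a median of -0.05, and the 17 genes of endoplasmic reticulum folding one of 0.09, with 0 genes of either at the unadjusted p in edgeR and 0 called by DESeq2. Of 11 genes of the mitochondrial unfolded protein response 1 was higher and 2 were lower at that p. The 33 proteasome subunits had a median of -0.10, with 3 lower (9.09%), below the 12.2% of all genes. Among these 3, *pas-7* had 222, 204 and 217 CPM without and 185, 183 and 186 CPM with Cd. The 80 cytosolic ribosomal protein genes had a median of 0.01, with 1 higher and 1 lower. Of 26 stress transcription factors 5 (19.2%) were higher and 2 (7.69%) lower, near the 14.6% and 12.2% of all genes. *cebp-1* had 35.0, 31.8 and 38.4 CPM without and 56.9, 54.5 and 56.2 CPM with Cd (log2 fold change 0.67, adjusted p = 0.0524 in edgeR). *zip-2*, known for its role in the response to infection, had 225, 201 and 260 CPM without and 320, 300 and 311 CPM with Cd, a log2 fold change of 0.44.

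Families of oogenesis and DNA replication were lower with Cd by small amounts. Of 31 oocyte and eggshell genes 24 (77.4%) were lower and 1 higher at the unadjusted p, beside 12.2% of all genes lower, with a median of -0.40 and a median rank at the 7.07th percentile. All 24 DNA replication genes had negative log2 fold changes, 14 of them at the unadjusted p (median -0.34). So had all 16 germ granule genes, with 9 at that p (median -0.29), and all 14 genes of the synaptonemal complex and chromosome axis, with 8 (median -0.26). None was called in edgeR or DESeq2. The library medians of the oocyte genes were -0.17, 0.20 and -0.03 without and -0.65, -0.25 and -0.29 with Cd. Medians in the 2 against 2 comparison were -0.18 for oocyte, -0.13 for replication, -0.12 for germ granule and -0.12 for synaptonemal genes, with 12 of 31, 9 of 24, 5 of 16 and 5 of 14 genes lower at the unadjusted p, beside 11.2% of all genes. Without exposed replicate 1 alone they were -0.27 for oocyte, -0.23 for replication and -0.19 for germ granule genes.

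Members of each group showed similar libraries. *cpg-2*, an eggshell chondroitin proteoglycan gene, had 1717, 2179 and 1831 CPM in unexposed and 1129.6, 1470.1 and 1405 CPM in exposed worms. *cpg-3* of the same family had 220, 308 and 242 CPM without and 130, 169 and 162 CPM with Cd. *rnr-2*, a ribonucleotide reductase subunit gene, had 296, 375 and 305 CPM without and 184, 243 and 234 CPM with Cd. In all 3 genes unexposed replicate 2 was highest and exposed replicate 1 lowest. *rpa-2*, a subunit gene of the single-strand DNA binding complex, was more even, with 195, 184 and 186 CPM without and 143, 149 and 149 CPM with Cd. The germ granule gene *pgl-3* had 204, 213 and 207 CPM without and 143, 165 and 170 CPM with Cd, and the chromosome axis gene *htp-1* 111, 99.4 and 103 CPM without and 78.5, 86.7 and 84.9 CPM with Cd. *cpg-7* was the exception among the oocyte list, with 129, 66.5 and 107 CPM without and 225, 140 and 148 CPM with Cd, and library order as in the collagens.

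Sperm genes did not follow oocyte genes. The 31 tested *msp* genes had a median log2 fold change of 0.05, a range of -0.12 to 0.23, and 0 at the unadjusted p in edgeR and 0 called by DESeq2. Of 24 *spe* and *fer* genes 5 (20.8%) were higher and 1 (4.17%) lower, beside 14.6% and 12.2% of all genes, with a median of 0.13. *fer-1*, needed for sperm membrane fusion, had 19.2, 16.25 and 17.3 CPM without and 24.6, 21.8 and 21.8 CPM with Cd. *spe-44*, a regulator of spermatogenesis genes, had 28.1, 31.1 and 27.6 CPM without and 20.1, 23.7 and 22.97 CPM with Cd. The 6 vitellogenins had a median of -0.58 (2 lower at the unadjusted p) with overlapping libraries and a median of -0.08 with 2 against 2 (-0.29 without unexposed replicate 2).

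**Figure D4:**
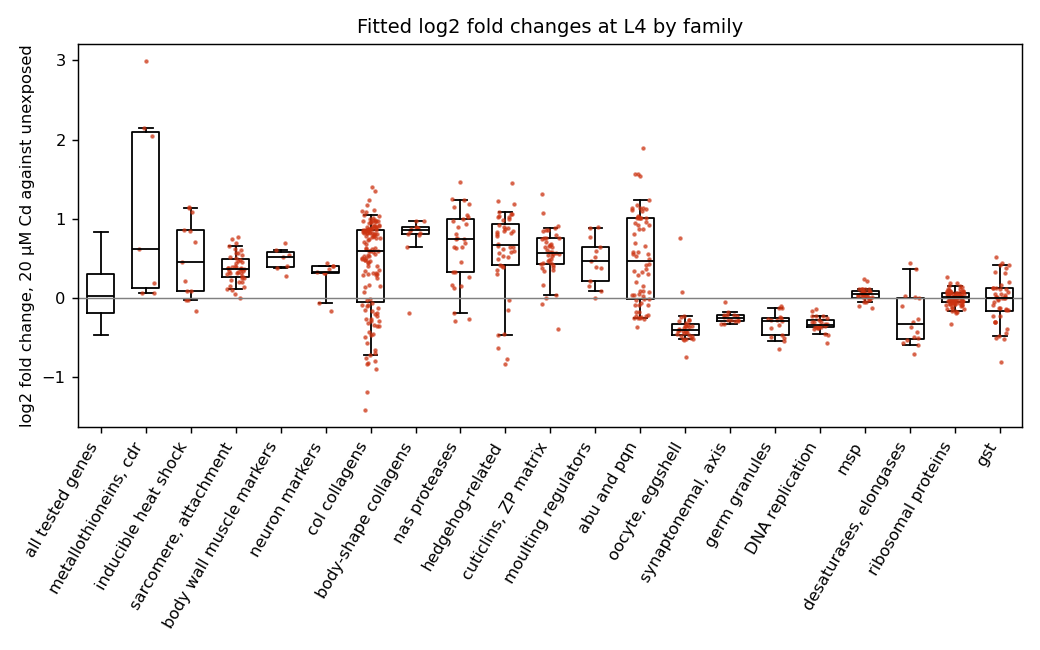
Fitted log2 fold changes at L4 (20 µM Cd against unexposed) of all 16201 tested genes and of the tested members of 20 families, with boxes from the first to the last quartile, a line at the median, whiskers at the 5th and 95th percentiles and red points for members. The sarcomere list lies at or above 0, the DNA replication genes lie below it at a median of -0.34, and the collagens span -1.41 to 1.40.

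Desaturases and elongases, which make fatty acids, and lysosomal lipases had negative medians. Of 16 desaturases and elongases 8 (50%) were lower and 1 higher at the unadjusted p, with a median of -0.33, and of 7 lysosomal lipases 3 (42.9%) were lower and 1 higher, with a median of -0.31. Over all genes 12.2% were lower. The lipase median was -0.19 with 2 against 2 libraries and -0.04 without unexposed replicate 2 alone. *fat-2*, which makes linoleic acid, had 560, 661 and 499 CPM in unexposed and 301, 382 and 370 CPM in exposed libraries. *elo-6*, an elongase for branched-chain fatty acids, had 293, 272 and 227 CPM without and 179, 196 and 182 CPM with Cd. *elo-5*, of the same pathway, had 184, 218.6 and 146 CPM without and 106.3, 133 and 126 CPM with Cd. Every exposed library lay below every unexposed one in these 3 genes, as the rule for naming genes required. With 2 against 2 libraries the family median was -0.13, with 4 lower at the unadjusted p, and without unexposed replicate 2 alone it was -0.19. Genes of fatty acid activation and breakdown went both ways, with 8 higher and 8 lower of 56. *ech-7*, an enoyl-CoA hydratase gene, had 122, 121 and 97.02 CPM without and 59.4, 65.3 and 71.7 CPM with Cd, whereas *cpt-4*, a carnitine palmitoyltransferase homologue, had 43.98, 35.6 and 45.04 CPM without and 78.7, 66.2 and 66.2 CPM with Cd. Among the lipases *lipl-4* was higher with Cd, at 0.485, 0.104 and 0.458 CPM without and 2.04, 2.37 and 2.49 CPM with it. *lipl-5*, of the same family, had 376, 417 and 374 CPM without and 286, 294 and 289 CPM with Cd.

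The medians of the 5 detoxification families lay between -0.10 and 0.13. Of 44 glutathione S-transferase genes 2 were higher and 2 lower at the unadjusted p (4.55% each), below the 14.6% and 12.2% of all genes. Short-chain dehydrogenases had 1 of 30 higher and 7 (23.3%) lower, with a median of -0.07. Cytochrome P450 genes had 9 higher and 8 lower of 58, UDP-glucuronosyltransferases 8 and 5 of 59, and superoxide dismutases, catalases and peroxiredoxins 1 and 1 of 10. *gst-33* had 6.61, 5.45 and 5.16 CPM without and 3.903, 2.93 and 3.03 CPM with Cd. *cyp-31A2* had 75.7, 81.2 and 74.0 CPM without and 43.8, 58.5 and 54.4 CPM with Cd. *ugt-63* had 6.66, 8.62 and 4.01 CPM without and 1.69, 2.86 and 3.25 CPM with Cd, and DESeq2 called it lower, the only call among these 5 families.

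Defence families were mixed. Of 28 antimicrobial peptide genes (*cnc*, *fip* and *fipr*) 9 were higher and 0 lower (14.6% and 12.2% over all genes), at a median of 0.28. Without the libraries at the ends, in 2 against 2, 5 were higher and 5 lower, and the median was 0.07. The median was 0.17 without exposed replicate 1 and 0.56 without unexposed replicate 1. *cnc-4*, an epidermal antimicrobial peptide gene, had 28.7, 15.2 and 30.97 CPM without and 81.4, 39.6 and 46.9 CPM with Cd, the library order of the collagens. *fipr-22* had 4.01, 3.996 and 4.10 CPM without and 6.62, 5.99 and 6.57 CPM with Cd. *irg-2*, an infection response gene, had 3.17, 1.38 and 3.50 CPM without and 5.80, 8.53 and 11.5 CPM with Cd. Exposed replicate 1 was the highest exposed library for *cnc-4* and the lowest for *irg-2*. Of 140 C-type lectins 6 were higher and 12 lower, with *clec-47* at 6.57, 4.70 and 4.15 CPM without and 0.828, 1.36 and 1.71 CPM with Cd (log2 fold change -1.97, adjusted p = 0.0524 in edgeR). *spp-23*, a saposin-like gene, had 70.02, 70.9 and 47.6 CPM without and 27.2, 32.1 and 32.7 CPM with Cd. Both were called lower by DESeq2. F-box genes had 25 higher and 12 lower of 183, and the *math* and *bath* genes 5 higher and 13 lower of 65. The 23 tested *pals* genes, known for the response to intracellular pathogens, had 1 higher and 0 lower.

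Among signalling families the nuclear hormone receptors had 34 higher and 6 lower of 196 at the unadjusted p and a median of 0.13, with *nhr-114* as the exception past the threshold. Neuropeptides had 18 (22.2%) higher and 2 lower of 81, and ligand-gated channels 11 (28.9%) higher and 0 lower of 38, beside 14.6% and 12.2% of all genes. With 2 against 2 libraries the neuropeptides had 8 higher and 4 lower and the channels 7 higher and 1 lower, beside 11.2% of all genes in each direction. *nlp-30*, an epidermal antimicrobial peptide gene, had 15.8, 7.60 and 14.2 CPM without and 52.6, 22.2 and 29.5 CPM with Cd. Its neighbour *nlp-34* had 21.5, 8.72 and 18.9 CPM without and 57.8, 30.1 and 35.4 CPM with Cd. Both were highest in exposed replicate 1 and lowest in unexposed replicate 2. *oac-14*, an acyltransferase homologue, had 41.1, 45.7 and 47.3 CPM without and 69.8, 85.4 and 91.0 CPM with Cd, a log2 fold change of 0.88 (adjusted p = 0.0524 in edgeR), and was lowest among the exposed libraries in replicate 1.

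**Figure D5:**
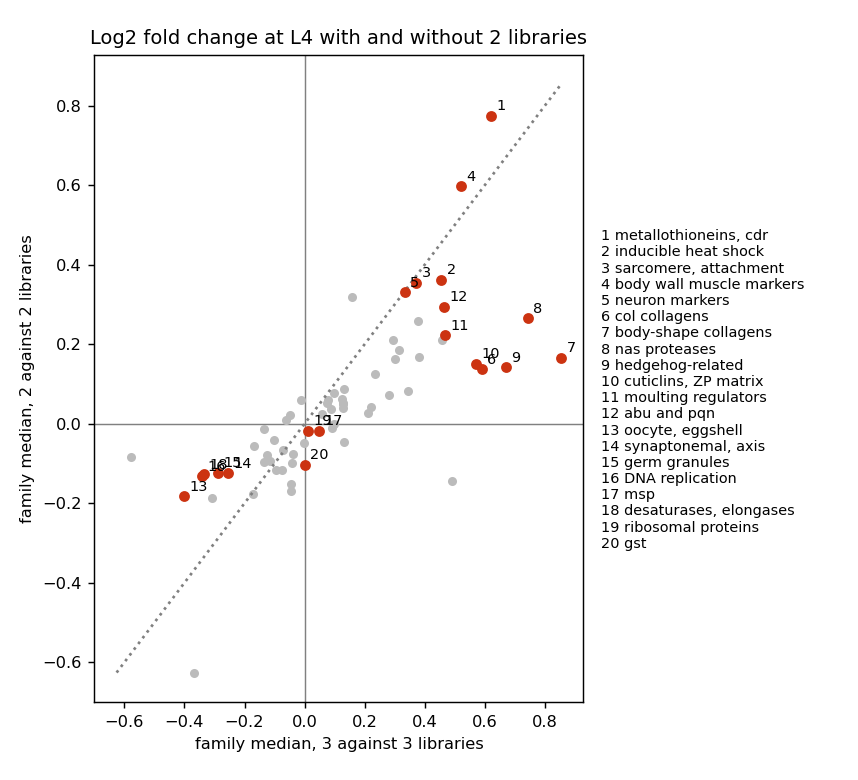
Family medians of the log2 fold change at L4 with 2 against 2 libraries (vertical, without unexposed replicate 2 and exposed replicate 1) against all 3 against 3 (horizontal), for families with at least 5 tested genes (grey) and the 20 in the key (red), with a dotted line of equality. The sarcomere list (0.37 and 0.35) and metallothioneins with *cdr* genes (0.62 and 0.77) lie near or above the line, and body-shape collagens (0.85 and 0.17) lie far below it. The libraries left out were the ends of the first principal component, so a drop in families that follow it is set by this choice.

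The shares of higher and lower genes differed between chromosomes, as a description. On the X chromosome 20.7% of 2300 tested genes were higher and 6.35% lower at the unadjusted p, with a median log2 fold change of 0.15. On chromosome V 16.9% were higher and 10.5% lower. Chromosomes I and III had the reverse, with 11.3% and 11.05% higher and 14.6% and 15.7% lower. The X median was 0.02, -0.04 and 0.02 in the unexposed and 0.22, 0.11 and 0.12 in the exposed libraries, and 0.08 in the fit of 2 against 2. Germline genes are known to be scarce on the X chromosome, and the part of the lower germline families in these values was not tested. The 170 genes called by DESeq2 held 12 neighbouring pairs at most 10 kb apart, all 12 with the same direction and 11 of them higher. Of the 170 genes 134 were higher, 50 of these on chromosome V, so a shared direction is common among them in any case. The share of such pairs over all tested genes was not taken. *abu-8* and *abu-7*, 1 of the pairs, overlap in their coordinates. *mtl-2*, *T08G5.1* and *T08G5.3* formed 1 run on chromosome V, with 92 bp between *mtl-2* and *T08G5.1*, and *K09D9.1*, *C49G7.7*, *C49G7.10* and *irg-2* formed another. These neighbours were picked after their values were seen, and whether reads were counted by strand is not stated, so reads of genes that touch cannot be told apart.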

How the data were processed

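The authors trimmed reads with Trimmomatic 0.36, mapped them with STAR 2.5.2b to WBcel235 and counted them with featureCounts of Subread 1.5.2, per the submitters' processing notes in the labels. The annotation release, strandedness and treatment of multi-mapping reads are not given in the sources used here. The deposited values are whole-number counts, 1 per gene and library, without normalization or pooling. An entry without a gene name held 0.0148% to 0.0983% of an L4 library and was left out. Gene coordinates are those given with the deposited counts.

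The L4 groups were compared in R 4.3.3 with edgeR 4.0.16 (TMM, filterByExpr, glmQLFit, glmQLFTest) on the 6 L4 libraries, and the difference of the Cd effects at L4 and L3 on all 12. DESeq2 1.42.0 was an alternative. CPM are TMM-normalized, except that marker sums and ranks use CPM of the library total without TMM, and log2 CPM for library medians had a prior count of 2. The common biological coefficient of variation was 0.157. The scripts were tested on simulated data. Other settings were DESeq2's size factors, no filter, no fold minimum, the unadjusted p, a test against a fold of 2, all 12 libraries in the fit, the replicate number as a block, and each library left out.

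Families were chosen by gene name and described by counts, medians and ranks, without a set test. Named genes were all called genes, *rla-1* and, per family described, up to 3 in each direction with the smallest unadjusted p among those without overlap of the groups, of which part are printed. Members, lists and tests were chosen with earlier results of these data known. Of the study's 15 genes listed as higher and 15 as lower at L4, chosen on these samples, 5 and 0 were called in edgeR. All 15 of each had an unadjusted p of at most 0.05 there. DESeq2 called 14 of the higher and 13 of the lower list, and the study itself used DESeq2's Wald test.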

Additional observations from a re-analysis of the deposited data

Results flagged for a closer look

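The genes listed here had Cd effects that differed between L4 after 47 h and L3 after 27 h, by edgeR's test over all 12 libraries. The threshold was an adjusted p of at most 0.05 and a difference of at least 1. Stage and length of exposure cannot be told apart in this test. Each value is the log2 fold change of Cd at L4 minus that at L3. Only genes picked for naming were searched, most of them picked by their p and lack of overlap at L4, and not all 1072 called differences. Which genes are listed, and their directions, follow in part from that choice. No group has enough libraries for a search for single outlying values. The effect was smaller at L4 for the metal genes *mtl-1* (-2.39), *cdr-1* (-1.38) and *T08G5.1* (-1.36), which were higher with Cd at both stages. It was also lower at L4 for *col-98* (-1.85), *math-45* (-1.83), *spp-23* (-1.10) and *fat-2* (-1.02).

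The effect was higher at L4 for the cuticle and moulting genes *col-155* (1.64), *col-154* (1.97), *col-113* (2.79), *dpy-13* (3.26), *rol-8* (2.06), *nas-38* (2.51), *nas-23* (3.60), *ptr-23* (2.32), *grl-4* (2.17), *qua-1* (1.62), *cut-4* (2.77), *cutl-5* (3.696), *bed-3* (2.36) and *mlt-10* (2.46). The same direction was found for *hsp-70* (1.06), *hsp-16.2* (1.12), *aip-1* (1.22), *cebp-1* (1.23), *fipr-26* (2.65), *cnc-4* (2.45), *cpg-7* (2.70), *nlp-30* (2.37), *nlp-34* (2.71) and *oac-14* (1.08).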

How the results depend on the processing

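The count of 7 called genes was 7 with DESeq2's size factors and 9 without a fold minimum. It was 60 with 2 against 2 libraries (chosen after the data were seen), 170 in DESeq2, 93 with all 12 libraries in the fit, 267 without a filter, 463 at the unadjusted p with the fold minimum, and 0 to 12 with each library left out. In edgeR's test against a fold of 2 it was 0, with 84 genes at an unadjusted p of at most 0.05 in that test. With the replicate block it was 387. Same-numbered libraries correlated at 0.63, 0.60 and -0.18 in their deviations from the group means, and libraries of other numbers at -0.63 to 0.48. The labels name no shared source, so whether the numbers pair the libraries cannot be told. The 1072 called differences between stages were 1998 without a fold minimum, 1100 with the replicate block, and 635 to 1555 with each library left out.

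With 2 against 2 libraries the medians moved to -0.13 for desaturases and elongases, 0.14 for *col*, 0.17 for body-shape collagens, 0.27 for *nas*, 0.14 for hedgehog-related, -0.18 for oocyte and -0.13 for DNA replication genes. With each library left out they ranged from -0.43 to -0.19 for desaturases and elongases, from -0.070 to 0.078 for ribosomal proteins, from 0.34 to 0.62 for muscle markers and from 0.28 to 0.42 for the sarcomere list. *rla-1* ranged from -0.057 to 0.039 and changed sign. The cause was not tested. Of the family medians over all settings 737 moved by less than the replicate spread and 67 by more. The latter values came from 41 of the 67 families with at least 5 tested members, so most families moved by more in at least 1 setting. Genes of low counts, such as *K04A8.20*, are limited by depth.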
